A study of Papio hamadryas with 14 samples.

Results

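Genomic imprinting leaves 1 parental copy of a gene silent, and several genes marked this way act on fetal growth. IGF2 is a growth factor of the fetus, CDKN1C holds the cell cycle back, and the paternally expressed genes MEST, PEG10, DLK1, PLAGL1, PEG3, NDN and MAGEL2 are active in embryonic tissues and in many cases decline after birth. The fetal kidney makes IGF2 in its mesenchyme, and CDKN1C marks maturing podocytes, the filtering cells of the glomerulus. The members described here are the probe sets of 10 such genes, chosen by gene symbol: the 9 named above and H19, the maternally expressed RNA beside IGF2. Of 16186 probe sets in the tables, 18 belong to 9 of the genes. They are 4 of CDKN1C, 3 each of PLAGL1 and IGF2, 2 each of PEG10 and PEG3, and 1 each of MEST, DLK1, NDN and MAGEL2. No probe set here carries the symbol H19, which is not analysed here. The 3 IGF2 probe sets are annotated with IGF2 and with the read-through transcript INS-IGF2, and the 2 cannot be told apart. A probe set shared by ZIM2 and PEG3 was not counted.

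The samples are whole kidneys of the baboon Papio hamadryas. They were taken at 60 days of gestation (60dG, 2 arrays), at 90dG, 125dG and 160dG (3 arrays each), and from adults of 6, 7 and 12 years (3 arrays). No strain, sex or treatment enters any comparison. The fetal samples are labelled as biological replicates and each adult is a separate age. Human Affymetrix arrays were used for this baboon RNA, 1 type for the 11 fetal samples and another for the adults, so array type and adult age cannot be told apart. A value is the deposited signal of a probe set, in linear intensity units, and a sequence difference between baboon transcript and human probe can lower it. In whole kidney, fewer cells of a type and less RNA per cell cannot be told apart.

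Median signals were 172.9 to 194.6 on the fetal arrays and 210.2 to 214.4 on the adult arrays, and the number of arrays limits the precision. The 60dG replicate 2 array stood apart in adrenal genes. CYP17A1, a steroid hydroxylase, read 4960 there and at most 182.7 on any other fetal array, and STAR, which brings cholesterol into mitochondria, read 1097 against at most 13.3. Of the 6 adrenal markers measured, 5 were highest on that array among the fetal arrays, and their summed signal was 7613 against 183.2 to 364.9 on the other 10. On that array 14 of 18 member probe sets read higher than on 60dG replicate 1 (46.9% of all tested probe sets did), so the differences from 60dG that the text turns on are given without it as well. Its part in the results was not tested otherwise. The 3' to 5' ratio of the GAPDH control was 2.46 and 3.43 on 90dG replicates 2 and 3, and 1.62 to 1.99 on the other fetal arrays. Kidney marker genes were read as means over the fetal arrays, which does not check a single array or stage. Of the 6 measured for the proximal tubule, 5 (SLC34A1, LRP2, CUBN, SLC5A2 and AQP1) lay above the filter described next. So did 4 of the 5 measured for podocytes (NPHS1, PODXL, PTPRO and WT1). At 60dG alone SLC5A2 read 112.6 to 153.3, below the filter's signal of 177.4.

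Probe sets whose mean over the fetal arrays exceeded the median of all (a signal of 177.4) were tested, 8071 in all. That kept 17 of the 18 members and all 9 genes. The dim PEG3 probe set 209243_s_at, at 21.1 to 110.6 on the fetal arrays, was not tested. Differences below are on the log2(signal + 16) scale, later minus earlier stage, with the standard error of the fit, and a change is called at a limma adjusted p under 0.05 over all tested probe sets. In the moderated F test over the 4 fetal stages, 5 of 17 member probe sets were called, 1 each of MEST, PEG10, IGF2, MAGEL2 and PLAGL1 (limma). Over all tested probe sets the same rule called 17.7%. MEST, PEG10 and MAGEL2 kept this call under all alternatives tried. IGF2 lost it with quantile normalization (limma adjusted p = 0.485) and without an intensity trend (0.0563), over a range of 0.00395 to 0.485. PLAGL1 lost it in 11 of 21 alternatives (limma adjusted p from 0.0103 to 0.145), among them those without 60dG replicate 1 or 2, 90dG replicate 2 or 3, 125dG replicate 1 or 2, or 160dG replicate 1 or 3.

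From 60dG to 160dG, 3 of the 17 probe sets fell, those of MEST, PEG10 and IGF2, and none rose (limma, adjusted p under 0.05). Of all tested probe sets 4.15% fell and 5.67% rose. The median difference of the 17 was -0.22, against -0.02 over all tested. PEG10 fell most of the members called, by 2.02 ± 0.31, a 4.06-fold loss, and MEST by 1.28 ± 0.19, a 2.43-fold loss. Without 60dG replicate 2 the difference was -1.28 for MEST and -1.85 for PEG10, and both were called (limma adjusted p = 0.00964 and 0.0184). Of the cell cycle markers, genes of dividing cells, 6 of 6 tested fell over the same span, and of the nephron progenitor markers, 2 of 2 (limma). Their summed signals at 60dG and at 160dG were 4172 to 4979 and 646 to 1133 for the cell cycle, and 2498 to 2669 and 1178 to 1286 for progenitors. Proximal tubule markers went the other way, with 4 of 5 called higher and sums of 1414 to 1938 and 4672 to 9748. In the renal stroma 2 of 7 fell and 1 rose. Among genes of tissues outside the nephron, the liver gene AFP (-4.45 ± 0.45), the cartilage collagen COL2A1 (-3.48 ± 0.30) and the embryonic globin HBE1 (-3.62 ± 0.36) fell. The later globin HBB rose by 1.08 ± 0.22. The summed liver signal was 1957 to 3881 at 60dG and 252 to 418 at 160dG. That of cartilage was 1415 to 1470 and 398 to 502, and that of the erythroid genes 1473 to 2765 and 664 to 802. AFP alone read 1542 to 3098.5 and 58.3 to 117.4, and COL2A1 alone 1170 to 1172 and 62.6 to 161.4. Of 5 cartilage genes measured, COL2A1 was the only 1 tested. The other tested liver gene, APOA1, was not called (-0.56 ± 0.31, limma adjusted p = 0.306). Neural genes gave 0 calls of 2 tested in limma, and at an unadjusted p under 0.05 also 0. On leaving out 60dG replicate 2 the calls were 5 of 5 tested for the cell cycle, 1 of 2 for progenitors, 4 of 5 for the proximal tubule and 1 of 7 for the stroma, and AFP, COL2A1 and HBE1 were still called but HBB was not (limma adjusted p = 0.0987). The part of these cell types in the fall of the members was not tested.

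**Figure D1:**
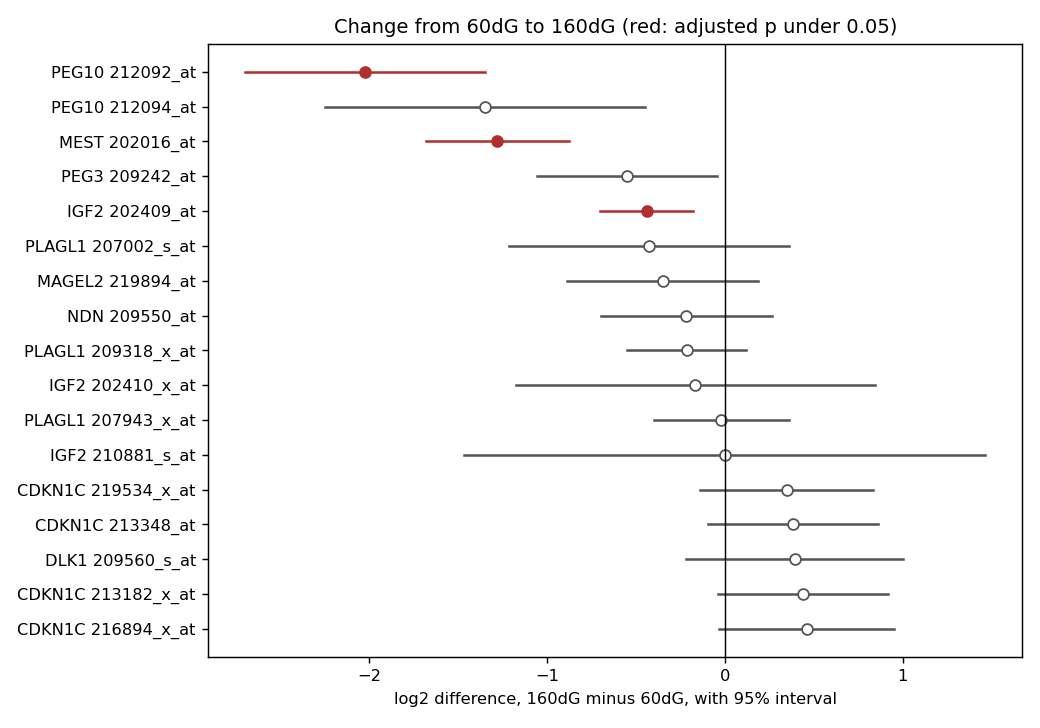
Log2 difference between 160dG and 60dG (horizontal axis, signal + 16) for the 17 tested member probe sets (vertical axis), with the 95% interval of the limma fit. Filled red points passed the threshold: PEG10 (212092_at) at -2.02, MEST at -1.28 and IGF2 (202409_at) at -0.44. The intervals of the 4 CDKN1C probe sets and of DLK1 all include 0.

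MEST, a hydrolase-like protein of mesoderm whose loss slows fetal growth in mice, showed no called change to 90dG and was lower afterwards. At 60dG its arrays read 11862 and 11898, and at 90dG 11396, 10945 and 11534. At 125dG they read 7515, 5638 and 7151, and at 160dG 3838, 4599 and 6608. The 60dG arrays lay slightly above the 90dG arrays without overlap. Both groups lay above the 125dG arrays, while the 125dG and 160dG arrays overlapped through replicate 3 of 160dG. The first step was -0.07 ± 0.19 and was not called (limma adjusted p = 0.842), with a 95% interval of -0.48 to 0.33, and was -0.07 without 60dG replicate 2 as well. Over the alternatives it ranged from -0.27 to -0.05 and was called in none. From 90dG to 125dG MEST fell by 0.75 ± 0.17 (limma adjusted p = 0.0220), and from 90dG to 160dG by 1.21 ± 0.17 (limma adjusted p = 7.00e-04). The last step, -0.46 ± 0.17, was not called (limma adjusted p = 0.466). As a slope MEST fell by 0.14 ± 0.02 per 10 days (limma adjusted p = 4.09e-04). The slope and the falls from 60dG or 90dG to 160dG kept their calls in all alternatives. The 90dG to 125dG fall did not pass on leaving out 90dG replicate 2 (limma adjusted p = 0.0549) or 3 (0.0707), or 125dG replicate 2 (0.0698) or 3 (0.0587). It also missed the threshold in 3 other settings, over a range of 0.00669 to 0.191. These were the GAPDH ratio as a covariate (-0.66, limma adjusted p = 0.114), quantile normalization (-0.42, 0.191) and no intensity trend (0.05725).

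**Figure D2:**
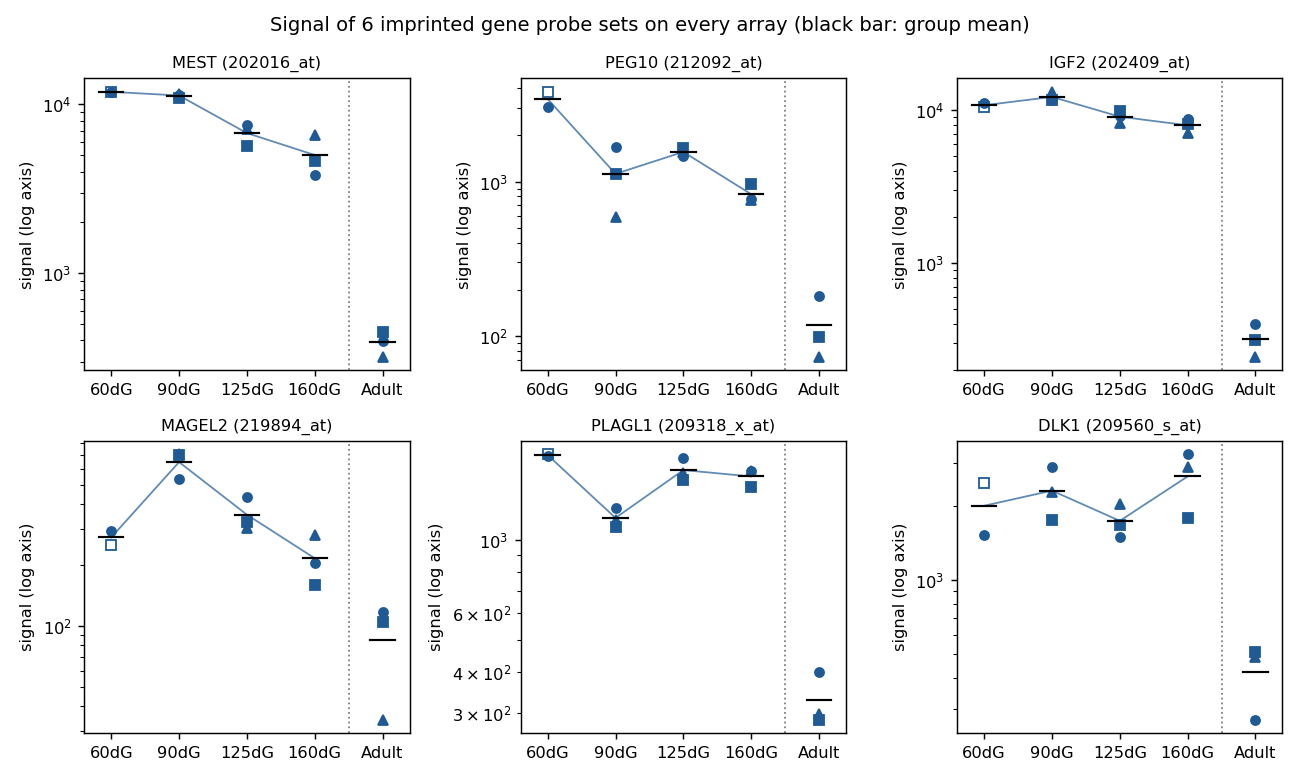
Signal on every array (vertical axis, logarithmic) for 1 probe set each of MEST, PEG10, IGF2, MAGEL2, PLAGL1 and DLK1 in the 4 fetal stages and adult (horizontal axis). Circles, squares and triangles are replicates 1, 2 and 3, the open square is 60dG replicate 2, black bars are group means and lines join the fetal means. MEST is nearly level to 90dG and then declines, PEG10 is highest at 60dG, MAGEL2 peaks at 90dG, and the adult arrays lie below all fetal arrays in each panel.

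PEG10, a gene derived from a retrotransposon and needed for the placenta, was highest at 60dG. Its brighter probe set, 212092_at, read 3017 and 3808 at 60dG and 1661, 1115 and 585.8 at 90dG. At 125dG it read 1471, 1638 and 1552, and at 160dG 766.3, 964.2 and 754.2. Both 60dG arrays lay above all later arrays. From 60dG to 90dG it fell by 1.70 ± 0.31 (limma adjusted p = 0.00707), a call lost without 60dG replicate 2 (limma adjusted p = 0.0657, the highest over its alternatives, which began at 7.28e-04). The 2 later steps, 0.59 ± 0.28 and -0.90 ± 0.28, were not called (limma adjusted p = 0.209 and 0.326), and the slope was -0.14 ± 0.05 per 10 days (0.0598). Without 90dG replicate 1 the first of these steps became a called rise of 0.93 (limma adjusted p = 0.0234), and the slope was called without 90dG replicate 2 (0.0488) or 3 (0.00188). Without 60dG replicate 2 the slope was -0.11 and further from the threshold (0.194). Replicates 2 and 3 of 90dG also had the raised GAPDH control ratio. With that ratio as a covariate the slope was -0.18 and called (limma adjusted p = 3.47e-04). The 90dG to 160dG difference, not called in the main fit (-0.32, 0.465), was then -0.87 and called (0.0298).

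The dimmer PEG10 probe set, 212094_at, read 380.0 and 491.8 at 60dG, 89.5, 277.1 and 397.7 at 90dG, 177.2 to 183.5 at 125dG and 155.8 to 168.5 at 160dG. Its difference from 60dG to 160dG, -1.35 ± 0.42, just missed the threshold (limma adjusted p = 0.0581, range over alternatives 0.00163 to 0.273). It was called without 90dG replicate 1 (0.00163) or 3 (0.0277), and was -1.17 and not called without 60dG replicate 2 (0.273). With the GAPDH ratio as a covariate it was -1.39 and called (0.00810), and the 60dG to 90dG difference was -1.67 and called (0.0231). Within 90dG the 2 probe sets ran opposite ways: the array highest on 212092_at, replicate 1, was lowest on 212094_at, and replicate 3 the reverse. The GAPDH ratios of 90dG replicates 1, 2 and 3 were 1.782, 2.465 and 3.434, and their part in this was not tested. Across the 11 fetal arrays the deviations of the 2 from their stage means had a Pearson correlation of -0.82, given as a description.

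The 3 probe sets of IGF2 did not share a course. On 202409_at the 60dG arrays read 11087 and 10482, those of 90dG 11736, 11729 and 13235, those of 125dG 9131, 9820 and 8291, and those of 160dG 8747, 8077 and 7088. The 60dG and 90dG arrays all lay above the 125dG and 160dG arrays, which overlapped with each other. From 90dG to 160dG the signal fell by 0.62 ± 0.11 (limma adjusted p = 0.00262), a 1.54-fold loss, which was called in all alternatives but quantile normalization, where the difference was -0.17 (limma adjusted p = 0.217, range from 0.00158). From 60dG to 160dG it fell by 0.44 ± 0.12 (limma adjusted p = 0.0356), and the slope was -0.06 ± 0.02 per 10 days (0.0262). From 90dG to 125dG it fell by 0.43 ± 0.11 (0.0343). The 60dG to 160dG fall missed the threshold on leaving out either 60dG array (limma adjusted p = 0.238 and 0.116), 125dG replicate 1 (0.0528), or 160dG replicate 2 (0.0675) or 3 (0.118). The slope missed it on leaving out 160dG replicate 2 (0.0650) or 3 (0.101). The 90dG to 125dG fall missed it on leaving out any 1 of 60dG replicates 1 and 2, 90dG replicates 2 and 3, and 125dG replicates 1 and 3 (limma adjusted p 0.0507 to 0.123). With quantile normalization the limma adjusted p of the 60dG to 160dG fall, the slope and the 90dG to 125dG fall were 0.557, 0.391 and 0.513. Without an intensity trend they were 0.149, 0.0731 and 0.114, and with no filter 0.113, 0.0699 and 0.095. With the GAPDH ratio as a covariate the 90dG to 125dG fall was -0.37 and not called (0.153).

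The other IGF2 probe sets, 210881_s_at and 202410_x_at, were called in no comparison. Array by array, 210881_s_at read 761.8 and 4520 at 60dG, 562.4, 2681 and 2576 at 90dG, 3858, 3399 and 1759 at 125dG, and 1650, 2101 and 1864 at 160dG. The low arrays were replicate 1 of 60dG and of 90dG, and 202410_x_at was lowest on the same arrays, at 503.5 and 354.7. Between the 60dG replicates 210881_s_at differed 5.93-fold and 202410_x_at 3.27-fold, while 202409_at read 0.95 of replicate 1 on replicate 2. Only 9 of 8071 tested probe sets, itself included, differed as much between the 60dG arrays as 210881_s_at. The higher 60dG array is the one with the adrenal signal. The adrenal marker sums of 90dG replicates 1, 2 and 3 were 364.9, 271.1 and 274.2. Over the 11 fetal arrays these 2 probe sets correlated at 0.97 and each correlated with 202409_at at -0.14 and -0.12 (Pearson, a description). From 60dG to 160dG 210881_s_at differed by 0.00 with a 95% interval of -1.46 to 1.46, which includes changes of over 2-fold either way. Without 60dG replicate 2 the difference was 1.27 and was not called (limma adjusted p = 0.347), and that of 202410_x_at went from -0.17 to 0.67 (0.508). The suffix _s_at marks probes shared among transcripts, and _x_at marks probe sets whose probes may also bind other sequences.

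**Figure D3:**
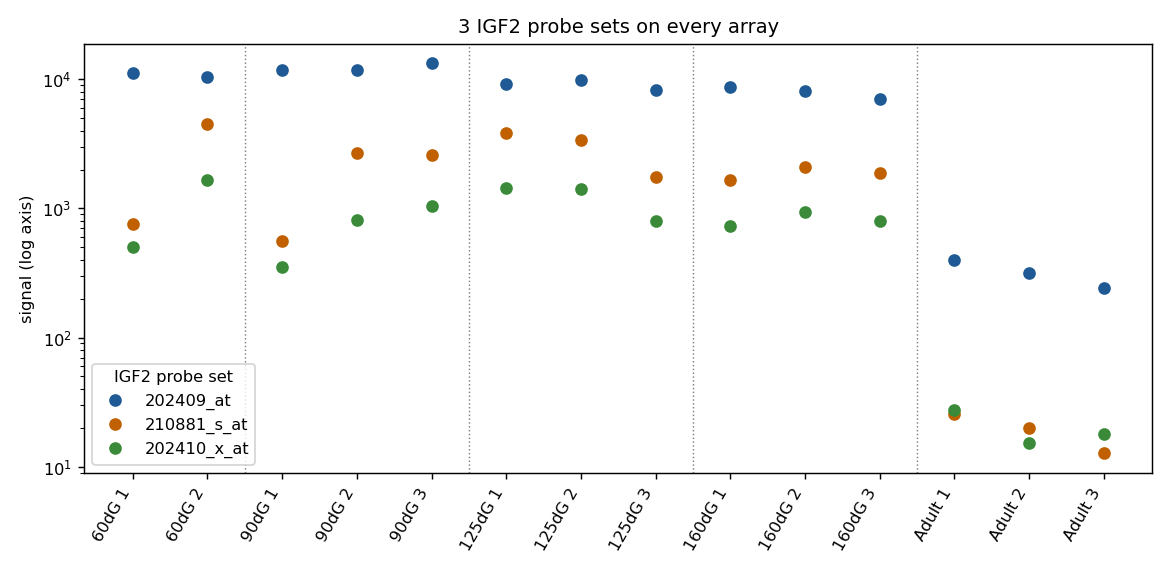
Signal (vertical axis, logarithmic) of the 3 IGF2 probe sets on each of the 14 arrays (horizontal axis, dotted lines part the groups). On 202409_at all fetal arrays lie between 7088 and 13235, while 210881_s_at and 202410_x_at are low together on replicate 1 of 60dG and of 90dG. All 3 are far lower on the adult arrays, at 12.7 to 398.3.

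MAGEL2, a MAGE protein that acts in endosomal protein sorting and lies in the Prader-Willi region, was highest at 90dG. It read 295.0 and 252.3 at 60dG, 531.4, 701.5 and 705.1 at 90dG, 431.6, 327.8 and 304.9 at 125dG, and 205.6, 160.0 and 281.9 at 160dG. The 90dG arrays did not overlap any other stage. From 60dG to 90dG MAGEL2 rose by 1.19 ± 0.25 (limma adjusted p = 0.0129), the only member called upward in a fetal comparison of the full data. From 90dG to 125dG it fell by 0.84 ± 0.22 (limma adjusted p = 0.0398), and from 90dG to 160dG by 1.54 ± 0.22 (8.42e-04). The first and last stages differed by -0.35 ± 0.25, which was not called (limma adjusted p = 0.439, 95% interval -0.89 to 0.18), and was -0.46 without 60dG replicate 2. The fall from 90dG to 160dG kept its call in all alternatives tried. The rise missed the threshold on leaving out 60dG replicate 1 (limma adjusted p = 0.0775) or 2 (0.0946), and with the GAPDH ratio as a covariate (0.0636, difference 0.96). The 90dG to 125dG fall was lost in 10 of 20 alternatives, those without 60dG replicate 1 or 2, 90dG replicate 2 or 3, or any 125dG replicate among them (limma adjusted p 0.0528 to 0.132), and with the covariate (0.213).

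NDN (necdin), which restrains growth and survival signals and lies beside MAGEL2 in the genome, was called in no comparison. It ranged from 486.4 to 906.7 over the fetal arrays, with a mean of 663 ± 119 (SD, n = 2) at 60dG and 568 ± 78.8 (SD, n = 3) at 160dG, and all its stages overlapped. Its difference from 60dG to 160dG was -0.22 ± 0.22, with a 95% interval of -0.70 to 0.26, and -0.04 without 60dG replicate 2. Of 2 tested relatives with the same MAGE homology domain, MAGED2 fell over that span, by 0.69 ± 0.18 (limma adjusted p = 0.0262), a call lost without 60dG replicate 2 (-0.64, 0.159). MAGED1 differed by -0.48 ± 0.18 and was not called (0.107).

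PLAGL1, a zinc finger factor that restrains proliferation and is known to activate other imprinted genes, was measured by 3 probe sets. Only 209318_x_at was called. It read 1797 and 1814 at 60dG, 1253, 1093 and 1152 at 90dG, 1774, 1515 and 1591 at 125dG, and 1614, 1441 and 1612 at 160dG, so its 90dG arrays lay below all others. From 60dG to 90dG it fell by 0.63 ± 0.16 (limma adjusted p = 0.0253), and the difference from 90dG to 125dG, 0.47 ± 0.14, missed the threshold (0.0563). The fall missed the threshold on leaving out 60dG replicate 1 (limma adjusted p = 0.151) or 2 (0.127) or 90dG replicate 2 (0.0745) or 3 (0.0576), and with the GAPDH covariate (0.0758), over a range from 0.00624. Without 90dG replicate 1 the later difference was called, as a rise of 0.53 (0.0366). Probe set 207943_x_at was lowest at 125dG (343.1 to 421.0) and 207002_s_at spread from 238.5 to 598.3 within 160dG alone. Neither was called, and the 3 correlated with each other at -0.09 to 0.45 over the fetal arrays (a description).

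CDKN1C, an inhibitor of cyclin-dependent kinases, was called in no comparison on any of its 4 probe sets, and all 4 had a positive difference from 60dG to 160dG. On 213182_x_at the arrays read 1852 and 2690 at 60dG, 2036, 2861 and 2559 at 90dG, 2795, 2889 and 2685 at 125dG, and 2340, 3912 and 3042 at 160dG, and all stages overlapped. The 4 differences were 0.35 to 0.46, with standard errors of 0.22 to 0.23 (limma adjusted p 0.243 to 0.394). Their 95% intervals reached from -0.14 to 0.95, which includes a difference of nearly 2-fold. All 4 read higher on the 60dG array with the adrenal signal than on the other, by 1.28 to 1.58 times, and without that array the differences were 0.53 to 0.76 (limma adjusted p 0.134 to 0.362). Of the podocyte markers, 0 of 4 tested were called over the same span in limma and 0 had an unadjusted p under 0.05. PTPRO, a podocyte phosphatase, read 2428 on 60dG replicate 1 and 671.3 on replicate 2. The other tested podocyte markers were closer on these 2 arrays, with NPHS1 at 188.0 to 194.0, PODXL at 318.0 to 341.3 and WT1 at 872.2 to 954.1. Of 7 CDK inhibitor genes listed beside CDKN1C only CDKN3, a phosphatase that acts on cyclin-dependent kinases, was tested, and it differed by -0.74 from 60dG to 160dG without a call (limma adjusted p = 0.0761), and by -0.51 without 60dG replicate 2. The 3 with the suffix _x_at ran together (Pearson 0.91 to 0.92 between them over the fetal arrays) and 213348_at less so (0.46 to 0.63).

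**Figure D4:**
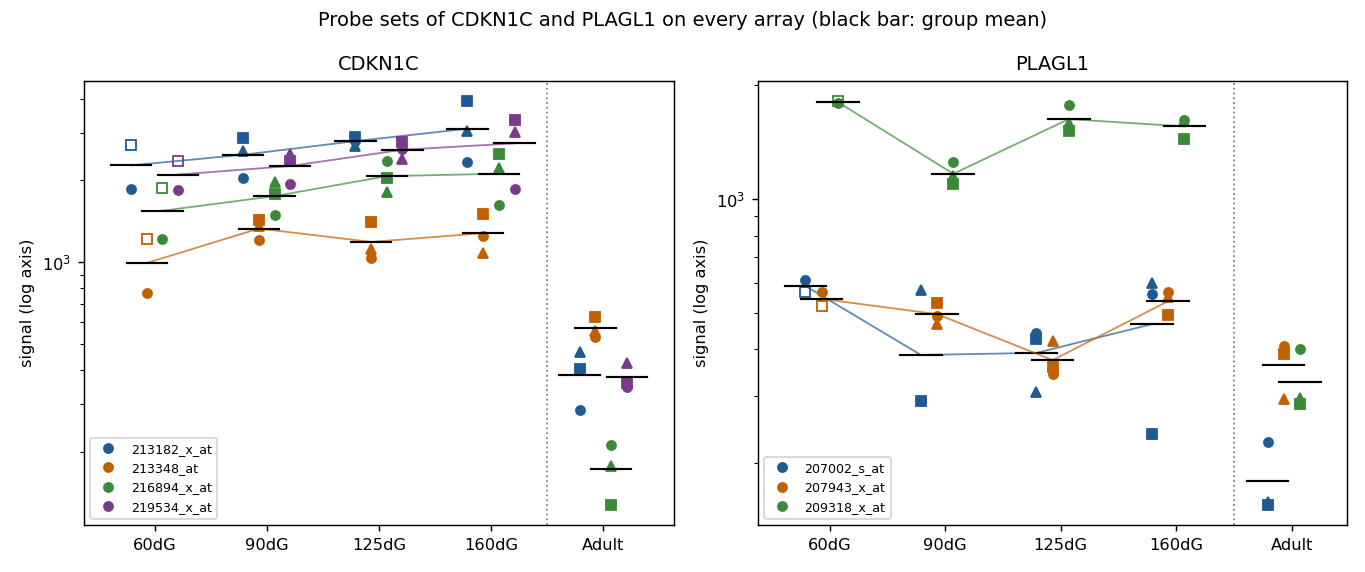
Signal on every array (vertical axis, logarithmic) for the 4 probe sets of CDKN1C and the 3 of PLAGL1 in each group (horizontal axis), with replicates and open square as in the plot by stage, and black bars for group means. The means of the 3 CDKN1C probe sets with the suffix _x_at are higher at each later stage, while that of 213348_at is highest at 90dG. For PLAGL1 the fetal means of 209318_x_at and 207002_s_at are lowest at 90dG and that of 207943_x_at at 125dG.

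DLK1, a membrane protein with EGF repeats that keeps precursor cells undifferentiated, showed no called difference. It read 1519 and 2489 at 60dG, 2882, 1756 and 2288 at 90dG, 1496, 1678 and 2047 at 125dG, and 3240, 1780 and 2889 at 160dG. All stages overlapped, and the spread within a stage reached 1.82-fold at 160dG. Its difference from 60dG to 160dG was 0.39 ± 0.28 (limma adjusted p = 0.455, 95% interval -0.22 to 1.00), and 0.74 without 60dG replicate 2 (0.257). PEG3, a zinc finger factor of growth and maternal behaviour, was dim. On 209242_at it read 254.6 and 358.1 at 60dG and 192.1 to 210.5 at 160dG, without overlap, a difference of -0.55 ± 0.24 that was not called (limma adjusted p = 0.171), and -0.32 without 60dG replicate 2.

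The steps between neighbouring stages held few calls. From 60dG to 90dG, 2 of 17 member probe sets fell (PEG10 and PLAGL1) and 1 rose (MAGEL2), where 4.32% of all tested probe sets fell and 4.53% rose. From 90dG to 125dG, 3 fell (MEST, IGF2 and MAGEL2), against 2.97% of all. From 125dG to 160dG, 0 of 17 were called in limma, against 0.223% of all tested probe sets. At an unadjusted p under 0.05 there were 5 of 17, and the share of all at that unadjusted p is not given here. Between stages further apart, 1 fell from 60dG to 125dG (MEST, by 0.82 ± 0.19, limma adjusted p = 0.0251), against 0.867% of all. It missed the threshold on leaving out either 60dG array (limma adjusted p = 0.177 and 0.148) or 125dG replicate 2 (0.0973) or 3 (0.0507). From 90dG to 160dG 3 fell (MEST, IGF2 and MAGEL2), against 8.54%. For the slope 2 fell (MEST and IGF2), against 4.44%. Comparisons that use the same stage share its arrays.

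Of 36 genes on a list of other imprinted genes, 15 have a probe set of their own and 8 were tested. Whether each is imprinted in the baboon kidney was not measured. For 60dG to 160dG and for the slope 0 of 8 were called in limma, with 2 at an unadjusted p under 0.05 in each. The receptor IGF2R, which takes up and degrades IGF2, rose from 60dG to 90dG by 0.69 ± 0.18 (limma adjusted p = 0.0318), a call lost without 60dG replicate 2 (0.63, 0.173). From 60dG to 160dG it differed by 0.38 ± 0.18. MEG3, the maternally expressed RNA beside DLK1, differed by 0.02 ± 0.25 between 60dG and 160dG, and GRB10, an adaptor that dampens insulin and IGF signals, by 0.43 ± 0.19. In the IGF axis list 6 of 15 tested genes rose and 3 fell from 60dG to 160dG. The 4 that rose most were the growth factor IGF1 (1.57 ± 0.32) and the binding proteins IGFBP3 (1.77 ± 0.25), IGFBP5 (1.34 ± 0.15) and IGFBP7 (1.57 ± 0.13). Those that fell were the IGF2 mRNA-binding proteins IGF2BP2 (-1.28 ± 0.32) and IGF2BP3 (-2.58 ± 0.26) and the protease PAPPA2 (-1.50 ± 0.23). Without 60dG replicate 2 the list's calls were 3 higher (IGFBP3, IGFBP5 and IGFBP7) and 2 lower (IGF2BP3 and PAPPA2), and IGF1 (1.28) and IGF2BP2 (-1.39) missed the threshold (limma adjusted p = 0.0862 and 0.0760). IGF1R and INSR, the receptors through which IGF2 signals, differed by -0.08 ± 0.46 and 0.12 ± 0.32.

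In the adult kidney 14 of 18 member probe sets were at least 2-fold lower than at 160dG with no overlap of arrays, against 15.4% of all tested probe sets. This comparison has no test because the array types differ. The median ratio of 160dG to adult mean signal was 5.49 over the members and 1.13 over all tested. The filter uses the fetal arrays and so favours genes that are high there. With a filter on the 160dG and adult arrays, chosen after seeing the data, the share of all was 10.9%. IGF2 had the largest ratios of the members. On 202409_at the adults read 398.3, 313.8 and 242.2 against a 160dG mean of 7971 ± 835 (SD, n = 3), a ratio of 25.1. On 210881_s_at they read 25.7, 19.8 and 12.7 against 1872 ± 225 (SD, n = 3), a ratio of 96.5 that no other tested probe set exceeded. That probe set lay on average at percentile 95.9 of its array at 160dG and 4.4 in the adult, so the adult signal is near the dimmest on the array and the size of the ratio is loose.

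MEST read 399.4, 450.6 and 319.5 in the adults, a ratio of 12.9 to 160dG. PEG10 (212092_at) read 182.4, 98.2 and 73.4, a ratio of 7.02, and DLK1 271.0, 510.6 and 487.6, a ratio of 6.23. On the dimmer PEG10 probe set, 212094_at, the adults read 58.8, 35.6 and 126.1, a ratio of 2.18. There 1 adult array lay above 90dG replicate 1, at 89.5. The 4 CDKN1C probe sets had ratios of 2.23 to 12.3, lowest on 213348_at, where the adults read 529.6, 629.4 and 557.7. PLAGL1 had ratios of 4.74, 2.59 and 1.47, and MAGEL2, with adults at 116.6, 104.9 and 34.3, one of 2.53. NDN read 290.4, 267.8 and 301.5 in the adults, a ratio of 1.98 just short of the 2-fold limit and without overlap. PEG3 overlapped between the groups on both probe sets, and on 209242_at the adults read 195.3, 261.1 and 223.1 against 202 ± 9.21 (SD, n = 3) at 160dG. Among markers, 7 of 7 tested genes of the renal stroma, the mesenchyme between tubules, were lower in the adult by the same rule, with a summed signal of 2139 to 3852 against 16974 to 20617. So were 3 of 4 of the podocyte genes (829 to 1143 against 2568 to 4279 over all 5 measured), while 2 of 5 of the proximal tubule were higher. Their part in the members' lower adult signal was not tested.

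**Figure D5:**
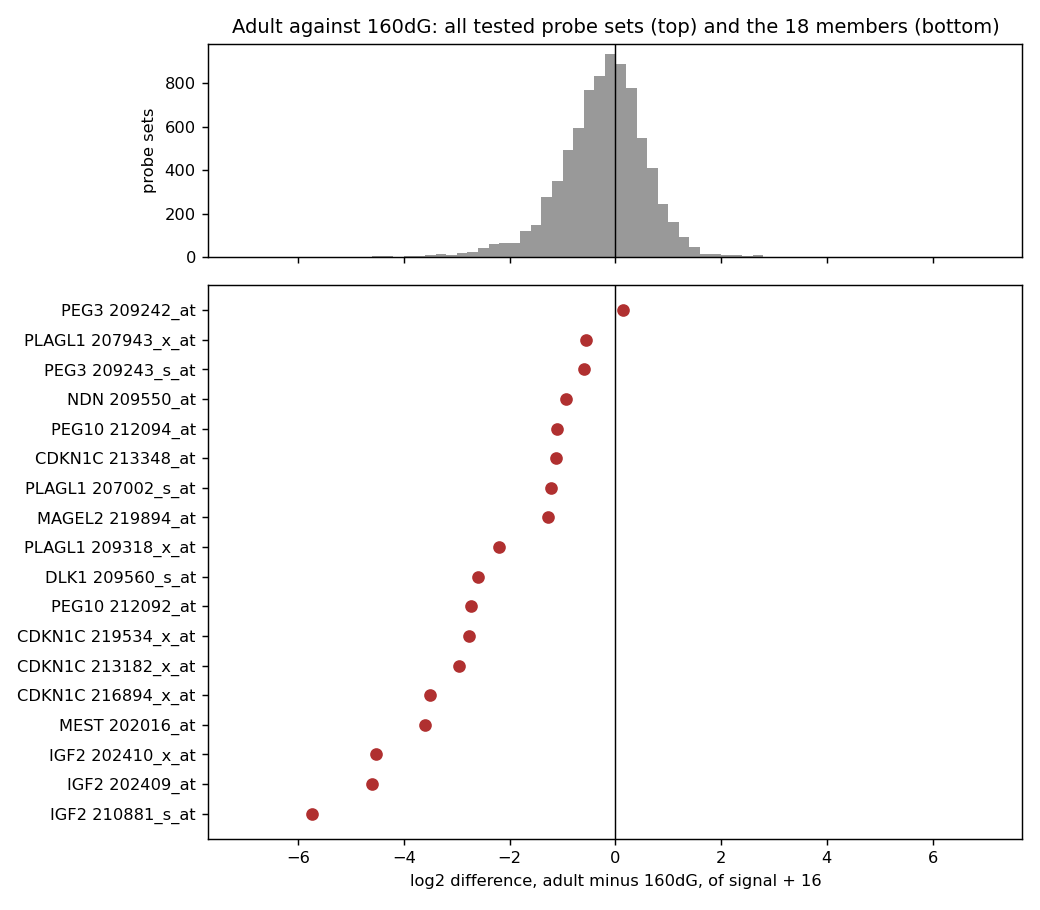
Log2 difference of adult minus 160dG signal + 16 (horizontal axis) for all 8071 tested probe sets (upper panel, number of probe sets) and for the 18 members (lower panel, 1 point each). The members reach from 0.15 for PEG3 (209242_at) to -5.75 for IGF2 (210881_s_at), and the median over all tested is -0.17.

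The genes whose fetal course was most like that of each member were read off as the 3 highest Pearson correlations with its brightest probe set over the 11 fetal arrays, a description in which all genes share the arrays and the stages. For MEST they were the embryonic globin HBE1 (0.94), RPN2 (0.94) and TRMT5 (0.94), and for PEG10 ZNF207 (0.97), ATAD2 (0.95) and PSMA2 (0.95). For IGF2 (202409_at) they were the corepressor TRIM28 (0.99), the ribosomal protein RPS19 (0.98) and the collagen chaperone SERPINH1 (0.97). MAGEL2 was nearest to NR2F6 (0.96), TMED10 (0.96) and IGSF1 (0.96), and PLAGL1 to CUL4B (0.96), EIF3A (0.94) and ZNF277 (0.94). CDKN1C was nearest to LMCD1 (0.95), COL18A1 (0.87) and KPNA6 (0.855), and DLK1 to GCDH (0.935), VEGFC (0.87) and ACRV1 (0.85). NDN was nearest to the metallothioneins MT1F (0.845) and MT2A (0.83) and to AP2S1 (0.83), and PEG3 to EMG1 (0.87), CCT4 (0.86) and GOT2 (0.855).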

How the data were processed

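RNA of 14 baboon kidneys was extracted with Trizol, labelled with biotin and hybridised to human Affymetrix arrays, per the labels' protocols. The authors deposited 1 linear signal intensity per probe set and array. GCOS (Affymetrix operating software) made them, per the submitters' processing notes. Its version, algorithm and scaling are not stated in the labels or tables used here. Trimmed means (2% from each end) of the arrays differed by at most 1.07 times, and no rescaling was applied. Gene symbols came from the platform annotation. The members and gene lists were chosen with earlier results of these data known.

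Signals were transformed as log2(signal + 16), and 43 control probe sets were left out. The 8071 probe sets above the 0.5 quantile of mean fetal log2 were fitted with limma 3.58.1 in R 4.3.3 (lmFit, eBayes with an intensity trend, Benjamini-Hochberg adjustment) over 11 fetal arrays in 4 stages. Separately, a slope per 10 days was fitted. The fit was tested on simulated data. Adult and 160dG arrays were compared without a test. Every member is reported, with up to 4 called genes each way per list and the 3 most alike genes per member. Other genes named (IGF2R, MEG3, GRB10, IGF1R, INSR, CDKN3, MAGED1, PTPRO, the other cell type markers and those under adult lists) were picked after their values were seen. Alternatives were a pseudocount of 1 or 64, no filter or the 0.75 quantile, quantile normalization, no intensity trend, array weights, a replicate block, 1 probe set per gene, the GAPDH control ratio as a covariate, no 90dG group and each array left out. For adults they were trimmed-mean scaling, quantile normalization, percentile ranks, each array left out and, chosen once the data had been seen, another filter. The fit of marker and list genes without 60dG replicate 2 was also chosen then. Matplotlib 3.10.9 drew the figures.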

Additional observations from a re-analysis of the deposited data

How the results depend on the processing

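Of 20 member results called over the fetal comparisons, 8 kept their call in all alternatives run, and no called result changed sign. They are the any-stage call of MEST, PEG10 and MAGEL2, the 60dG to 160dG falls of MEST and PEG10, the 90dG to 160dG falls of MEST and MAGEL2, and the slope of MEST. Of 116 not called, 15 were called under some alternative. Counts of member probe sets called changed by over 1.5 times as follows, and the cause was not tested. The shares of all tested probe sets called under each setting, or at an unadjusted p, are not given here. These fetal counts therefore do not set the members apart from other probe sets. From 90dG to 125dG (3) the count was 1 with no filter, 5 with array weights, and 0 under both the GAPDH covariate and no intensity trend in limma, where the full fit had 5 at an unadjusted p under 0.05. For 60dG against 125dG (1, and 5 unadjusted) it was 0 with no filter, with quantile normalization and without a trend, and 3 with array weights, the covariate or no 90dG group. Over any stage (5) it was 3 without a trend. For the slope (2) it was 1 with no filter, quantile normalization, no trend or the replicate block, and 4 with array weights or no 90dG group. Leaving out 1 array gave 0 to 3 from 60dG to 90dG, 0 to 6 from 90dG to 125dG, 0 to 3 from 60dG to 125dG, 3 to 5 from 90dG to 160dG and 1 to 3 for the slope. The replicate numbers showed no clear pairing of the arrays. Deviations of same-numbered arrays correlated at a median of 0.01, and 3 of 15 pairs exceeded 0.1. For arrays of other numbers the median was -0.012, and 4 of 30 pairs exceeded 0.1. With 2 or 3 arrays per stage this check cannot settle whether the numbers pair them. The replicate block moved no other count by over 1.5 times. With it the IGF2 (202409_at) fall from 60dG to 160dG and its slope missed the threshold (limma adjusted p = 0.0800 and 0.0569). The adult count of 14, beside 15.4% of all tested probe sets, ranged from 13 to 15 without 1 array (15.2% to 16.9% of all). It was 15 with quantile normalization (16.6% of all). By percentile rank it was 16 (32.6% of all), a count not held to the 2-fold limit. MEST, for example, lay at percentile 98.8 at 160dG and 73.0 in the adult. Signals near the adult arrays' lower end limit the size of the IGF2 ratios.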

Other observations

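In the adult few of the tested genes on the list of other imprinted genes passed the rule. By that rule of at least 2-fold and no overlap, without a test since the array types differ, 1 of 8 tested genes of that list was lower and 1 higher, against 15.4% lower and 4.72% higher over all tested probe sets. The lower was PHLDA2, a growth-restraining gene of the placenta, with a ratio of 160dG to adult of 2.86. The higher was GRB10, with a ratio of 0.42. Being set on the fetal arrays, the filter leaves out genes that are dim there and higher in the adult. Below it, NNAT (a ratio of 0.28), PPP1R9A (0.5) and INPP5F (0.28) were also higher by the rule, and none was lower. Over all 16143 probe sets but controls, 1729 were lower and 2501 higher. MEG3 had a ratio of 1.81 and IGF2R of 1.36. In the IGF axis 6 of 15 tested genes were lower in the adult and 0 higher. The lower were IGF1 (a ratio of 2.34), IGFBP2 (4.49), IGFBP4 (2.21), IGFBP5 (3.78), IGF2BP2 (4.26) and IGF2BP3 (3.20). Below the filter, STC2 (0.46) was higher. The MAGE relatives MAGED1 and MAGED2 had ratios of 2.13 and 2.65.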
